A study of Mus musculus with 2 samples.

Results

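The 36 genes described here encode 3 kinds of splicing factor: 12 SR proteins, 19 heterogeneous nuclear ribonucleoproteins (hnRNPs) and 5 other regulators of splicing. They were taken by name, with every transcript that the GENCODE M21 annotation of the mouse gives them, and all 36 matched a gene among the 55536 genes of the deposited tables. RNA with polyA tails was sequenced from mouse regulatory T cells, CD4 T cells that restrain immune responses. Both libraries are technical replicates of primary cells that came from 1 male mouse, an adult of 4 months whose strain is given as Foxp3CreERT2 x Rosa26YFP. In such a strain the Foxp3 locus, active in regulatory T cells, drives a tamoxifen-dependent Cre recombinase, and Rosa26 carries a yellow fluorescent reporter. The labels give no treatment and no sort, and they trace the cells to a haematopoietic cell of the bone marrow. There is no second animal and no control group, so errors are the SD between 2 technical libraries (n = 2), and no comparison between conditions exists.

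SR proteins carry an RNA recognition motif and a domain rich in arginine and serine, and they mostly help the spliceosome to use an exon. The hnRNPs bind nascent transcripts and often keep an exon out. Many of these genes are known to control their own output: an excess of the protein brings in a poison exon, which holds a premature stop codon, or keeps an intron. A transcript whose stop codon lies well upstream of its last exon junction is a target of nonsense-mediated decay (NMD), in which ribosomes that stop too early call in the UPF proteins. A transcript that keeps an intron often stays in the nucleus.

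GENCODE M21 lists 384 transcripts for the 36 genes. It types 194 as protein coding, 44 as NMD targets, 94 as retained-intron transcripts and 52 as processed transcripts, which have no annotated reading frame. The last 3 types are called noncoding below, although an NMD transcript does carry a reading frame. The median gene of the 36 had 9.5 transcripts, 4.0 of them noncoding, against 5.0 and 2.0 among all expressed protein-coding genes of these libraries. All 44 NMD transcripts, which belong to 23 of the genes, had a stop codon more than 50 bases before the last exon junction. Such a stop is what makes an NMD target, so this restates the annotated type. The stop lay outside every coding exon in 16 of the 44. In 12 it lay in a cassette exon, an exon that falls inside an intron of a coding transcript, which gave 10 distinct exons in 8 genes.

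The 5 cassette exons below are those of the SR genes that gave the largest shares of TPM to a transcript with such an exon. They are shown because they are where these transcripts part from the coding ones. Each sequence runs from the first base of the exon to the stop codon, which is in capitals. The sequences are from the GENCODE M21 transcripts, positions are on mm10 (GRCm38), and the exons measure 456 bases in Srsf3-201, 460 in Srsf7-203, 306 in Tra2a-202, 276 in Tra2b-206 and 207 in Srsf4-203.
Srsf3-201, chr17:29039454-29039487, plus strand: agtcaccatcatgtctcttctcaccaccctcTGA
Srsf7-203, chr17:80205054-80205081, minus strand: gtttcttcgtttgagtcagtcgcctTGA
Tra2a-202, chr6:49252965-49253108, minus strand: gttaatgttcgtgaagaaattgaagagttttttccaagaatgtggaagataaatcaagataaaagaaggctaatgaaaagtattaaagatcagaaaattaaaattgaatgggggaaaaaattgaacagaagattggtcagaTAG
Tra2b-206, chr16:22259181-22259261, minus strand: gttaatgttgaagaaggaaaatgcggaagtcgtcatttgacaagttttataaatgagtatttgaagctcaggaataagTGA
Srsf4-203, chr4:131884276-131884390, plus strand: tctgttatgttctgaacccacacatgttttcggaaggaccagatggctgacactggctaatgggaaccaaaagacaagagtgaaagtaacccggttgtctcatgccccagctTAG

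The exons of the paralogs Tra2a and Tra2b are both the second exon of their transcript, and their first 9 bases, gttaatgtt, are the same. The distance from the stop to the last junction was 964 bases in Tra2a-202, 1015 in Tra2b-206, 699 in Srsf7-203, 617 in Srsf4-203 and 548 in Srsf3-201.

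Of the 94 retained-intron transcripts, which belong to 28 genes, 35 held a whole intron of a coding transcript. The 3 introns below are from the retained-intron transcripts given the most estimated counts in Srsf5 and Srsf7 and the largest share in Hnrnpl. The first and last 20 bases of each are shown, with the first 2 and the last 2 bases of the intron in capitals. Each began with GT and ended with AG, the usual ends of an intron.
Srsf5-212, intron of 1229 bases, first bases at chr12:80947866-80947885, plus strand: GTttgttgaaatacagtttt
Srsf5-212, last bases at chr12:80949075-80949094, plus strand: cataattgtcttgtgttaAG
Srsf7-207, intron of 874 bases, first bases at chr17:80205242-80205261, minus strand: GTatttaattaatgaaggaa
Srsf7-207, last bases at chr17:80204388-80204407, minus strand: ttttctaacttaaaaaatAG
Hnrnpl-210, intron of 118 bases, first bases at chr7:28821274-28821293, plus strand: GTgagtcagacaccacttcc
Hnrnpl-210, last bases at chr7:28821372-28821391, plus strand: ctgtctcctgtttgattcAG

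The 874-base intron of Srsf7-207 spans the 460-base cassette exon of Srsf7-203, so the poison exon and the kept intron of Srsf7 lie in the same stretch.

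The libraries held 15821875 and 16153671 estimated counts on genes. Fragments were treated as 50 bases long in the deposited effective lengths (the length of a transcript minus its effective length was 49 for 99.9% of transcripts), while the labels give a size range of 100 to 300. TPM divides by this effective length, so the TPM shares of short transcripts (Srsf3-208 of 319 bases, Hnrnpu-209 of 351 and Hnrnpm-209 of 380 among those below) depend on it, and the size of that effect was not tested. All 6 markers listed for regulatory T cells (Foxp3, Il2ra, Ctla4, Ikzf2, Cd3e, Cd4) reached 1 TPM (a level corrected for transcript length and library depth). They summed to 2206 and 2213 TPM, with Cd3e alone at a mean of 1023 TPM. Cd3e and Cd4 are also expressed by other CD4 T cells, so the sum does not set regulatory T cells apart from those. The markers of other cells summed to 35.1 and 35.3 TPM for B cells (1 of 5 expressed, Cd79b), 5.05 and 3.77 for myeloid cells (1 of 7, with Elane and Mpo at 0), 15.0 and 18.01 for CD8 T and NK cells (3 of 4), 10.7 and 8.78 for red cells (2 of 4), and 0.50 and 0.87 for nonhaematopoietic cells (0 of 5, with Pdgfrb at 0). Their part in the levels below was not tested. In bulk RNA, fewer cells that express a gene and less RNA per cell cannot be told apart.

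Expressed means here that a gene reached 1 TPM in each library. By that rule 35 of the 36 genes were expressed, all of them also at 5 TPM or more. In each library 18 of them stood at 100 TPM or above. As background, 10251 of all 22028 protein-coding genes were expressed by the same rule. Of those 22028 genes, 8150 met the 5 TPM level and 1160 the 100 TPM level. The splicing factors had a median of 98.6 TPM over all 36 and 101.8 TPM over the 35 expressed. For protein-coding genes these medians were 0.625 TPM over all and 18.5 TPM over the expressed ones. By mean TPM, 16 of the 36 ranked within the top 1000 genes. The gene not expressed was Rbfox2, a regulator known from brain, muscle and epithelia, which had 0 and 1 estimated counts. The depth allows a level of up to 0.190 and 0.186 CPM (counts scaled to library depth) for a gene at 0 counts.

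**Figure D1:**
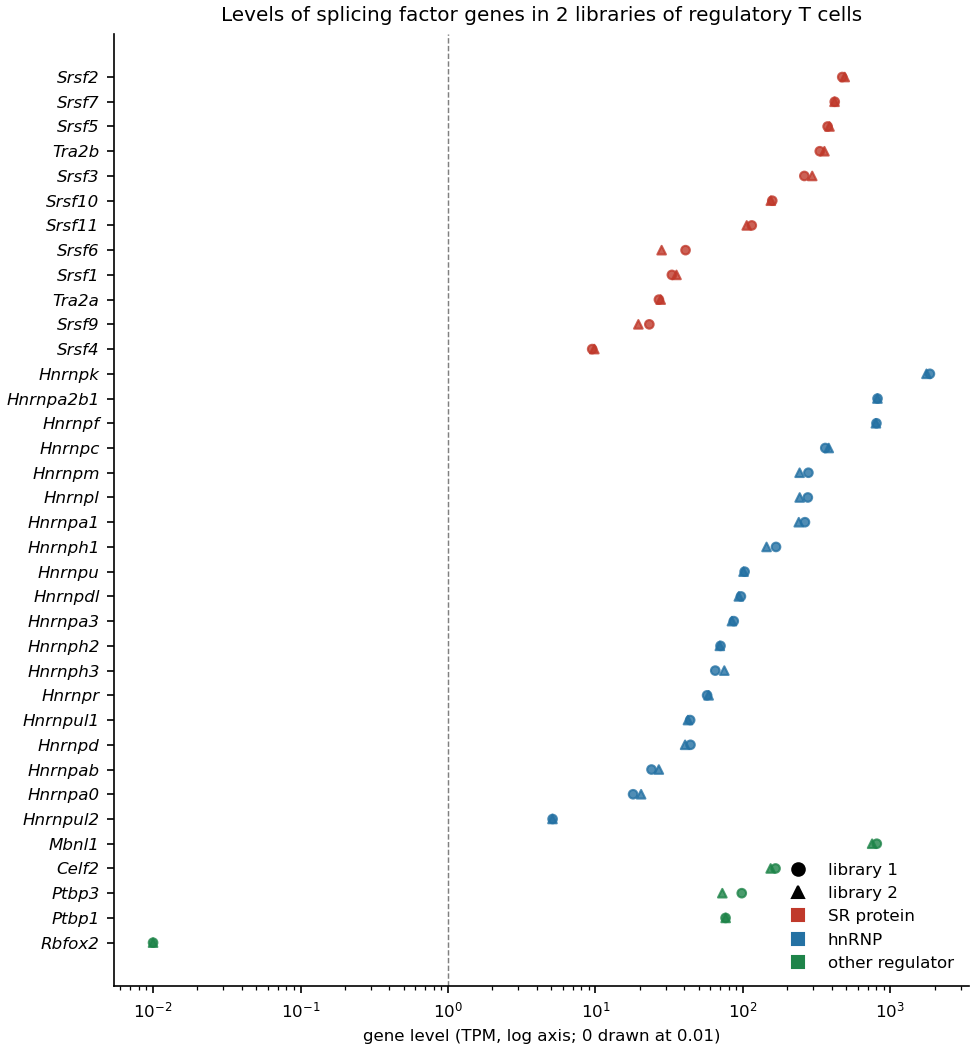
Level of each of the 36 genes in TPM (log axis) in library 1 (circles) and library 2 (triangles), by kind of factor, with the dashed line at 1 TPM. Hnrnpk is the highest at 1853 and 1756 TPM, Hnrnpul2 the lowest expressed gene at 5.12 and 5.11, and Rbfox2 sits at the left edge.

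The SR genes had a median of 133.4 TPM and spread over a wide range. Srsf2, an SR protein that binds exonic enhancers, was the highest at 471 and 490 TPM. Srsf7 and Srsf5 followed at 419 and 418 TPM and at 375 and 386 TPM. Tra2b, which favours exons rich in GAA repeats, was at 332 and 357 TPM, and Srsf3 at 261 and 295 TPM. Srsf2 exceeded all other SR genes in both libraries, and the libraries of Srsf7 and Srsf5 did not overlap either. Srsf10, an SR protein known to act as a repressor when it loses its phosphates, stood at 158 and 155 TPM and Srsf11 at 115 and 106 TPM. The founding member Srsf1 was low among them at 33.0 and 35.4 TPM, where it overlapped with Srsf6 at 40.8 and 28.1 TPM. Tra2a was at 26.9 and 27.7 TPM, Srsf9 at 23.2 and 19.5 TPM, and Srsf4 last at 9.50 and 9.82 TPM.

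The hnRNP genes had a median of 95.4 TPM. Hnrnpk, which binds C-rich RNA and DNA, was the highest of all 36 genes at 1853 and 1756 TPM. Hnrnpa2b1, which is known to bind methylated adenosines, was at 818 and 816 TPM, and Hnrnpf, which binds runs of G, at 804 and 797 TPM. Hnrnpc, which binds runs of U, was at 362 and 382 TPM. Below these, Hnrnpm (278 and 242 TPM), Hnrnpl (275 and 243 TPM) and Hnrnpa1 (263 and 239 TPM) overlapped one another. Hnrnpl is known to repress exons of Ptprc, the gene of CD45, and Hnrnpa1 is a general repressor of exons. Hnrnpu, a nuclear scaffold protein, was at 103 and 101 TPM. Hnrnpd, known as AUF1 and for the decay of mRNAs with AU-rich elements, was at 44.1 and 40.5 TPM. The lowest were Hnrnpab at 24.0 and 26.9 TPM, Hnrnpa0 at 17.99 and 20.4 TPM and Hnrnpul2 at 5.12 and 5.11 TPM. The remaining 7 hnRNP genes lay between 42.4 and 168 TPM. Of these, Hnrnph1 and Hnrnph3, which bind runs of G as Hnrnpf does, were at 168 and 145 TPM and at 64.9 and 74.8 TPM, and their relative Hnrnph2 was at 70.5 and 69.7 TPM, within the range of Hnrnph3. Hnrnpdl and Hnrnpa3, paralogs of Hnrnpd and Hnrnpa1, stood at 96.9 and 93.8 TPM and at 86.7 and 84.2 TPM. Hnrnpr was at 57.2 and 58.5 TPM and Hnrnpul1 at 43.9 and 42.4 TPM, the latter overlapping with Hnrnpd.

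Of the other regulators, Mbnl1, a muscleblind protein that regulates splicing and mRNA localisation, was at 809 and 752 TPM. Celf2, known as a splicing regulator of T cells, was at 166 and 154 TPM. Ptbp1, which represses exons through polypyrimidine tracts, was at 76.2 and 76.4 TPM, and its paralog Ptbp3, known from haematopoietic cells, at 98.2 and 72.5 TPM. The 2 libraries of Ptbp1 fell between those of Ptbp3, so their order was not settled.

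Gene totals were close between the libraries. None of the 35 genes that passed a minimum summed count of 10 differed by 1.5-fold, against a background of 21.9% of all 17458 genes so tested and 1.34% of the 8150 protein-coding genes at 5 TPM or more, the class to which all 35 belong. Their median absolute log2 ratio was 0.06, against 0.12 over those 8150 genes. The 8150 genes had a lower median level, 26.3 TPM against 101.8 for the 35, and no background matched for level was used. The widest differences, library 2 over library 1, were log2 ratios of -0.38 for Srsf6, -0.27 for Ptbp3 and -0.23 for Hnrnph1. By a binomial test (exact, two-sided, on estimated counts rounded to whole numbers), with p values adjusted over all genes by the Benjamini-Hochberg method, 14 of the 35 passed 0.05 (6 higher in library 2, 8 higher in library 1), against 24.3% of all genes. That test covers counting error only and compares these libraries, not conditions.

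A large part of the TPM of these genes was given to noncoding transcripts. Over the 34 expressed genes with more than 1 transcript, the median share was 39.1% of a gene's TPM, against 18.5% over 9458 expressed protein-coding genes with more than 1 transcript. By estimated counts the medians were 24.5% and 9.35%. Both measures depend on transcript length: a share of counts gives more weight to long transcripts, and a share of TPM divides the counts by effective length. Genes with more annotated transcripts have more that could take a share. Among 5056 protein-coding genes at 5 TPM or more with 5 to 20 transcripts, a background chosen after the data were seen, the medians were 25.8% of TPM and 14.0% of counts. With NMD and retained-intron transcripts alone taken as noncoding, the median was 23.3% of TPM for the splicing factors and 9.27% for the 9458 genes. Pooled over the 35 expressed genes, 28.4% and 29.0% of estimated counts lay on noncoding transcripts in libraries 1 and 2. Over the 10251 expressed protein-coding genes these were 15.3% and 15.3%.

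Of the 31 expressed genes that have a noncoding transcript, 11 had 50% or more of their TPM on noncoding transcripts in both libraries, which is 35.5%, against a background of 19.7% (1650 of 8385 protein-coding genes). By counts 8 did so, 25.8%, against 11.4%. With NMD and retained-intron transcripts alone, 6 of 29 genes with such a transcript did so by TPM, 20.7%, against 14.3% of 6931 protein-coding genes. The 11 were Srsf3, Hnrnpl, Tra2a, Hnrnpd, Hnrnph3, Hnrnph1, Hnrnpu, Tra2b, Srsf10, Srsf7 and Srsf2. The SR genes had a median noncoding share of 55.6% of TPM (44.4% of counts), the hnRNP genes 29.4% (11.5%) and the other regulators 18.3% (12.2%). These medians describe the listed genes, and their differences were not tested.

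**Figure D2:**
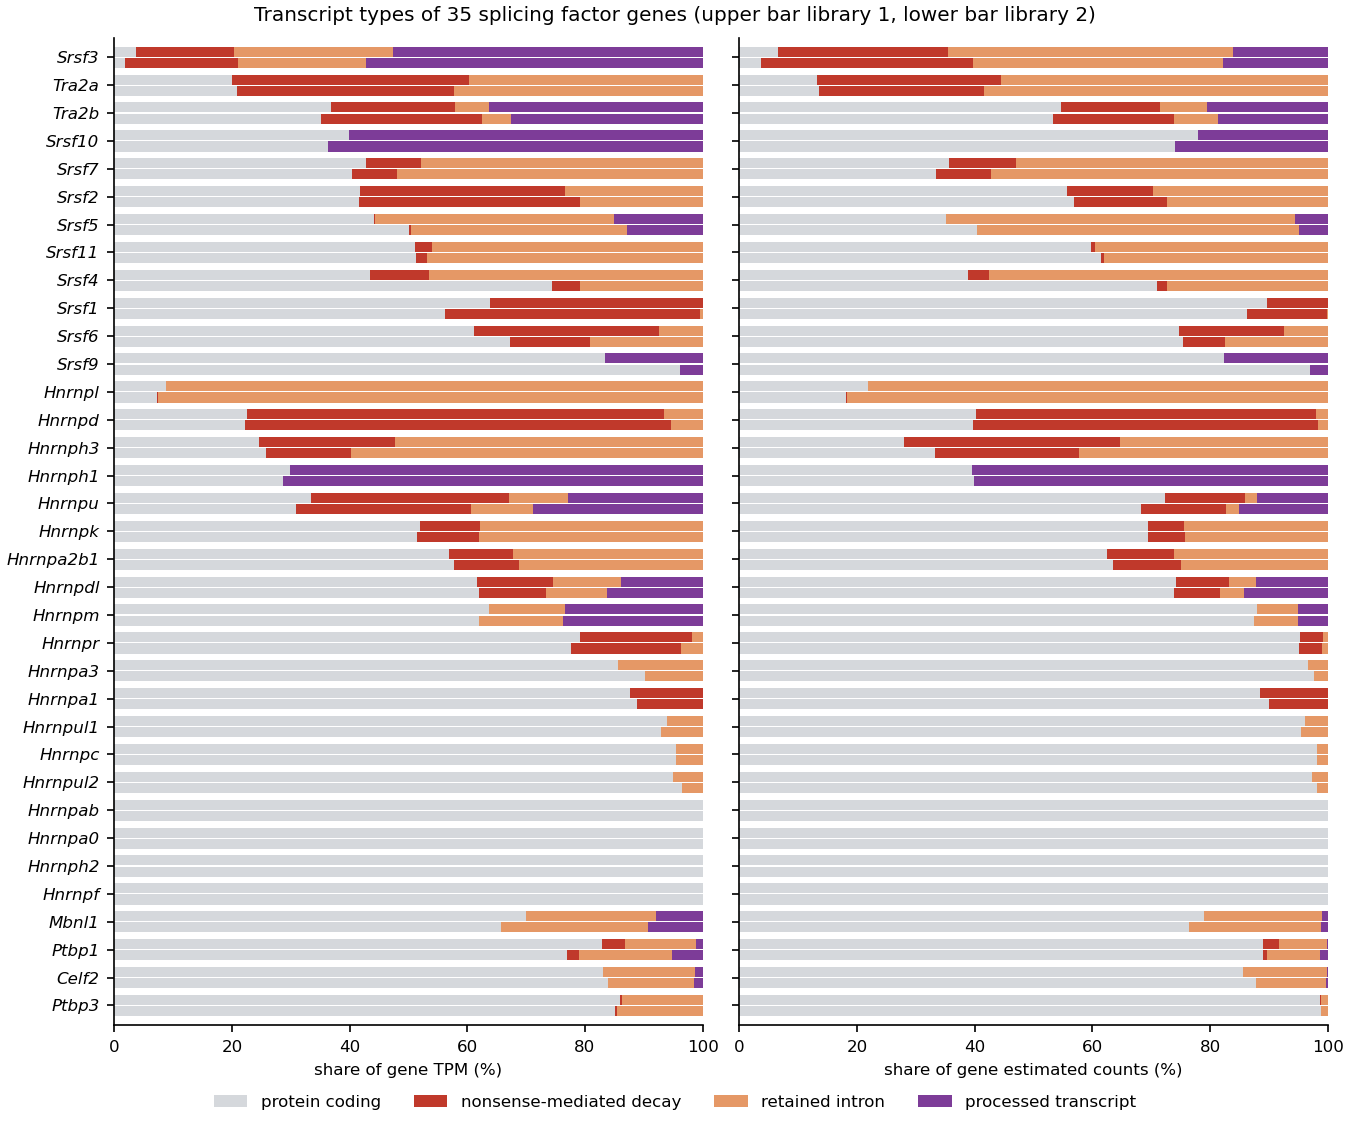
Share of each of 35 expressed genes' TPM (left) and estimated counts (right) given to the 4 transcript types, in percent, with library 1 in the upper and library 2 in the lower bar of each pair. Genes are ordered within each kind of factor by noncoding share of TPM, from Srsf3 (97.2%) to Srsf9 (10.3%) among SR genes and from Hnrnpl (91.9%) to 4 genes at 0 among hnRNPs.

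Srsf3 (chr17:29032628-29043373, plus strand), the smallest SR protein, had almost no share left on its only coding transcript. Srsf3-202, of 2618 bases, was given 3.75% and 1.89% of the gene's TPM, which is 9.79 and 5.58 TPM, from 313 and 187 estimated counts. The NMD transcript Srsf3-201, of 2594 bases, was given 16.6% and 19.1% of TPM from 1372 and 1866 counts. Both libraries thus put more estimated counts on the transcript with the poison exon shown above than on the coding one. The coding transcript ends 476 bases beyond Srsf3-201, and 19.8% of the 50-base windows of Srsf3-201 occur in no coding transcript of the gene. Only 0.24% of them occur in no other transcript of the gene. How reads in the shared stretches were divided was not tested, so these counts do not measure use of the poison exon. The retained-intron transcript Srsf3-205 held 18.7% and 15.0% of TPM, and 3 processed transcripts of 319 to 594 bases between 12.2% and 22.7% each. Of the windows of Srsf3, 9.999% also occur in transcripts of other genes, and the part of shared reads in these shares was not tested.

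Tra2a and Tra2b, paralogs that bind GAA-rich enhancers, both gave most of their TPM to noncoding transcripts. For Tra2a the noncoding share was 79.6 ± 0.64% of TPM and 86.7 ± 0.17% of counts. Tra2a-202, with the poison exon, was given 40.4% and 36.9% of TPM from 276 and 272 counts. Tra2a-203, a single exon of 3788 bases annotated as a retained intron, was given 37.1% and 40.0% from 464 and 540 counts, and 96.1% of its windows occur in no coding transcript. Coding transcripts of Tra2a kept 5.37 and 5.77 TPM. For Tra2b the noncoding share was 64.1 ± 1.24% of TPM and 46.0 ± 0.95% of counts. Its processed transcript Tra2b-202, of 946 bases and with 84.2% of windows outside the coding transcripts, was given 36.3% and 32.6% of TPM. The poison-exon transcript Tra2b-206 was given 14.0% and 16.2%, and Tra2b-207, with the same exon, 7.16% and 11.2%. So NMD transcripts of Tra2b took 21.2% and 27.4% of TPM, a smaller share than those of Tra2a in both libraries.

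Srsf7, Srsf5 and Srsf11 were led among noncoding types by retained introns, at 49.9 ± 2.90%, 38.7 ± 2.77% and 46.4 ± 0.66% of TPM. Srsf7-207, with the intron shown above, was the leading transcript of its gene at 38.9% and 41.6% of TPM, from 3798 and 4244 counts. The Srsf7 transcript with the poison exon, Srsf7-203, held 9.33% and 7.67% of TPM, from 945 and 812 counts. Within Srsf7 the transcript with the kept intron was therefore given more of both TPM and counts than that with the poison exon in both libraries. The kept intron spans the poison exon. Only 4.69% of the windows of Srsf7-203 and 0% of those of Srsf7-207 occur in no other transcript of the gene. How reads in the shared stretch were divided was not tested. Srsf5-212 likewise led Srsf5 at 38.6% and 35.2% of TPM, from 4807 and 4736 counts. Every window of Srsf5-212 also occurs in another transcript of the gene. By counts the noncoding share of these genes was 65.5 ± 1.48% for Srsf7 and 62.3 ± 3.74% for Srsf5, higher than by TPM, and 39.4 ± 1.15% for Srsf11, lower than by TPM. In Srsf11 no single retained-intron transcript led; the largest, Srsf11-213, held 14.1% and 13.4% of TPM.

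Srsf2 gave 36.2 ± 1.71% of its TPM to NMD and 22.1 ± 1.69% to retained-intron transcripts. By counts these were 15.2 ± 0.95% and 28.5 ± 1.76%, so the order of the types was the reverse. Its NMD transcript Srsf2-204 is 620 bases long and was given 34.9% and 37.3% of TPM, from 1168 and 1361 counts. Every 50-base window of Srsf2-204 also occurs in a coding transcript of the gene, so no window sets it apart. The retained-intron transcript Srsf2-203 held 23.3% and 20.9% of TPM, from 2411 and 2358 counts, and 59.5% of its windows occur in no coding transcript. The exons of Srsf2 also overlap those of Mettl23 and Mfsd11 on the opposite strand over 25.3% of their length. Whether counting used the strand is not given in the sources used here, so reads from that stretch cannot be told apart. The same holds for Hnrnpab and Ptbp1, whose exons overlap genes on the opposite strand over 29.1% and 20.7% of their length.

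Srsf1 had 40.0 ± 5.42% of TPM but 12.1 ± 2.34% of counts on noncoding transcripts, nearly all on the 896-base NMD transcript Srsf1-204, which held 36.2% and 43.5% of TPM from 126 and 170 counts. Srsf10 gave 61.9 ± 2.57% of TPM and 24.0 ± 2.82% of counts to processed transcripts, led by the 717-base Srsf10-207 at 25.3% and 24.5% of TPM. Shares of these 2 genes fell more than 2-fold from TPM to counts. In Srsf6 the NMD share was 31.4% in library 1 and 13.7% in library 2, while retained introns moved from 7.37% to 19.1%. In Srsf4, which had 291 and 297 counts, the retained-intron transcript Srsf4-201 held 46.6% and then 20.8% of TPM, and the coding Srsf4-202 held 43.5% and then 74.5%. The libraries of Srsf4 and Srsf6 thus disagreed on these shares by 31.0 and 17.7 points. Exons of Srsf4 overlap those of Gm12992 on the opposite strand over 43.0% of their length, and Gm12992 was at 0.81 and 0.24 TPM. Srsf9 had 16.6% and 3.9% on processed transcripts, and its poison-exon transcript Srsf9-205 was listed at 0 in both libraries.

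Among hnRNP genes, Hnrnpl (chr7:28808541-28822266, plus strand) had the highest noncoding share, 91.9 ± 1.08% of TPM and 80.0 ± 2.66% of counts. One 672-base retained-intron transcript at the 3′ end of the gene, Hnrnpl-210, was given 79.8% and 78.5% of TPM, from 1702 and 1547 counts of the 2891 and 2669 counts of the gene. Coding transcripts of Hnrnpl kept 24.3 and 17.7 TPM. Of the windows of Hnrnpl-210, 26.8% occur in no coding transcript, and the 118-base intron shown above lies among them. Its poison-exon transcript Hnrnpl-213, whose 70-base cassette exon lies at chr7:28817335-28817404, had 0 and 4 counts. Noncoding reads of Hnrnpl were thus assigned to retained-intron transcripts and hardly at all to Hnrnpl-213. Every window of Hnrnpl-213 also occurs in another transcript of the gene, so its counts do not measure how often the poison exon was used.

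Hnrnpd was the hnRNP gene with the largest NMD share, 71.6 ± 1.10% of TPM. It was led by Hnrnpd-208, at 41.7% and 48.4% of TPM from 244 and 273 counts, with 14.5% of windows outside coding transcripts. Every window of Hnrnpd-208 also occurs in another transcript of the gene. Hnrnph3 gave 56.1 ± 5.21% to retained introns, led by Hnrnph3-205 at 28.1% and 36.2%, and 18.8 ± 6.05% to its NMD transcript Hnrnph3-204, at 23.1% and 14.5%. By counts these types held 38.8 ± 4.88% and 30.6 ± 8.59%. Its total noncoding share was 74.8 ± 0.85% of TPM. Hnrnph1 had 70.7 ± 0.76% of TPM and 60.3 ± 0.15% of counts on processed transcripts, of which GENCODE lists 15 for it. Hnrnpu had 67.8 ± 1.87% of TPM but 29.7 ± 2.95% of counts on noncoding transcripts, and 31.7 ± 2.73% of TPM but 14.1 ± 0.71% of counts on NMD transcripts. Its 351-base NMD transcript Hnrnpu-209 had 18.6% and 13.3% of TPM from only 71.6 and 52.8 counts of 4486 and 4524.

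The 2 most abundant hnRNP genes split their TPM over many transcripts. Hnrnpk had 48.3 ± 0.37% of TPM and 30.6% of counts in each library on noncoding transcripts. Its leading transcript, the retained-intron Hnrnpk-217, held 18.9% and 19.6%, and every window of it also occurs in another transcript of the gene. Hnrnpa2b1 had 42.7 ± 0.62% of TPM and 37.0 ± 0.71% of counts, with the retained-intron transcripts Hnrnpa2b1-208 and Hnrnpa2b1-211 at 15.4% and 15.7% and at 14.7% and 13.9%. Its NMD transcript Hnrnpa2b1-209 held 10.9% and 11.1%, but none of its windows is outside the coding transcripts. Hnrnpdl had 38.1 ± 0.26% of TPM and 25.9 ± 0.27% of counts on noncoding transcripts, spread over all 3 types, with no type above 16.3% in either library. Hnrnpm gave 37.1 ± 1.13% of TPM but 12.3 ± 0.33% of counts to noncoding transcripts, with the 380-base processed transcript Hnrnpm-209 at 17.1% and 20.5% of TPM. Without transcripts under 500 bases its noncoding share was 17.7% of TPM. Hnrnpr gave 18.8 ± 0.18% of TPM to NMD, again from a transcript with no window of its own, Hnrnpr-206, and 3.93 ± 0.10% of counts. Hnrnpa1 gave 11.8 ± 0.81% to NMD, and Hnrnpa3 12.1 ± 3.33% to retained introns. By counts these shares were 10.7 ± 1.10% for Hnrnpa1 and 2.84 ± 0.78% for Hnrnpa3. At the other end, Hnrnpf, Hnrnph2, Hnrnpab and Hnrnpa0 have no annotated noncoding transcript and were at 0 by construction. Hnrnpc, Hnrnpul1 and Hnrnpul2 have retained-intron transcripts and gave them 4.59 ± 0.02%, 6.56 ± 0.73% and 4.30 ± 1.10% of TPM, or 1.80 ± 0.03%, 4.27 ± 0.45% and 2.28 ± 0.56% of counts. Of the other regulators, Mbnl1 gave 23.5 ± 2.01%, Celf2 15.1 ± 0.71%, Ptbp3 14.2 ± 0.60% and Ptbp1 13.9 ± 2.66% of TPM to retained introns, and none reached 10% NMD in both libraries. By counts these shares were 21.3 ± 1.66% for Mbnl1, 13.1 ± 1.69% for Celf2, 1.20 ± 0.03% for Ptbp3 and 8.59 ± 0.58% for Ptbp1. Nearly all of the Ptbp3 share lay on the 447-base Ptbp3-206, and without transcripts under 500 bases the noncoding share of Ptbp3 was 1.28% of TPM.

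Counting coding transcripts alone changed the order of the SR genes. Srsf2 kept the first place at 196 and 204 TPM on coding transcripts. Srsf5 followed at 166 and 193 TPM and Srsf7 at 180 and 169 TPM, with overlapping libraries, and then Tra2b at 122 and 125 TPM. Srsf3, the fifth of the SR genes by total level, was at 9.79 and 5.58 TPM on its coding transcript, below Srsf1 at 21.04 and 19.9 TPM and Srsf6 at 25.0 and 18.9 TPM. Among hnRNP genes Hnrnpl, level with Hnrnpm and Hnrnpa1 by total, had 24.3 and 17.7 TPM on coding transcripts against 177 and 150 TPM for Hnrnpm and 231 and 212 TPM for Hnrnpa1. Hnrnpd was at 9.94 and 9.04 TPM on coding transcripts, while Hnrnpab, lower by total, was at 24.0 and 26.9 TPM. Hnrnpab has no annotated noncoding transcript, so its coding level is its total by construction, and their order here depends on the annotation.

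By type, 14 of the 23 expressed genes with an NMD transcript gave it 10% or more of TPM in both libraries, which is 60.9%, against 33.2% of 3153 protein-coding genes with such a transcript. They were 6 of 11 SR genes, 8 of 9 hnRNP genes and 0 of 3 other regulators. By counts the NMD shares of Hnrnpdl (8.96% and 7.82%), Hnrnpk (6.13% and 6.36%) and Hnrnpr (4.01% and 3.86%) were under 10% in both libraries. Those of Srsf6 (17.8% and 7.13%) and Hnrnpa1 (11.5% and 9.92%) were under 10% in library 2 only. The others of the 14 stayed above 10% of counts in both. No NMD transcript of Srsf2, Hnrnpa2b1 or Hnrnpr has a window outside the coding transcripts. For retained introns 18 of 27 genes did so, 66.7%, against 53.9% of 6332 protein-coding genes. Among genes that have the type, the median NMD share was 11.8% of TPM against 6.35%, and 10.3% of counts against 3.80%. The median retained-intron share was 14.2% of TPM against 14.6%, but 12.4% of counts against 8.69%. Over all genes with more than 1 transcript, whether or not they have the type, the median retained-intron share was 12.7% of TPM against 5.23%. The median NMD share of these splicing factors thus lay above this background by both measures. Their retained-intron share lay near it by TPM among genes with the type and above it otherwise. In the 5056 genes with 5 to 20 transcripts, medians among genes with the type were 6.12% of TPM and 3.81% of counts for NMD. For retained introns they were 15.7% and 9.48%. Over all 5056 genes the median retained-intron share was 10.5% of TPM and 5.92% of counts. The splicing factors with more than 1 transcript had 12.7% and 5.81%, so by counts they were not above that background. None of these differences was tested.

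Division by length had a large effect on single genes. The noncoding share was higher by TPM than by counts in 26 of the 31 expressed genes with a noncoding transcript, and the median difference was 9.44 points. Over the 9458 expressed protein-coding genes with more than 1 transcript the median share was also higher by TPM, 18.5% against 9.35%. The number of those genes that were higher by TPM was not taken. Of 46 noncoding transcripts with 10% or more of their gene's TPM in both libraries, found in 23 genes, 24 were under 1000 bases and the median length was 921. By type these were 16 NMD, 17 retained-intron and 13 processed transcripts. Only 7 of the 46 started and ended within 50 bases of the ends of a coding transcript of the gene, 10 shared the 3′ end alone, 6 the 5′ end alone and 23 neither. The median share of their windows that occur in no coding transcript was 26.6%. It was under 10% in 8 of them and 0 in Hnrnpa2b1-209, Hnrnpr-206 and Srsf2-204.

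**Figure D3:**
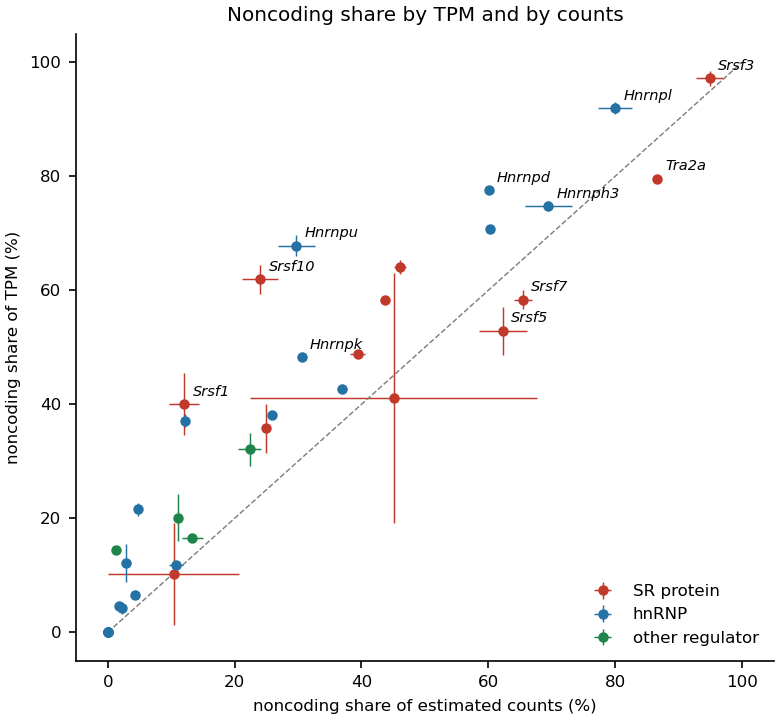
Noncoding share of each of 35 expressed genes by estimated counts (horizontal, %) against that by TPM (vertical, %), as the mean of 2 libraries with SD bars, coloured by kind of factor, with the dashed line of equality. Srsf1, Srsf10 and Hnrnpu lie far above the line, Tra2a, Srsf7 and Srsf5 below it, and Srsf4 has the widest bars.

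Per gene, the shift between the libraries is the sum of the shares that moved from one transcript, or one type, to another. Since a type is a sum of transcripts, its shift cannot be the larger one. Over the 31 genes with a noncoding transcript the median shift was 7.66 points over transcripts and 2.80 points over the 4 types, and the type shift was under 5 points in 21 of them. The 4 genes with coding transcripts alone cannot shift between types. The same transcript led in both libraries in 27 of the 35 expressed genes. In the other 8 genes the leading transcript differed between the libraries, namely Hnrnpa2b1, Hnrnpf, Srsf3, Srsf10, Ptbp1, Hnrnph2, Tra2a and Srsf4. Of the 35 genes, 11 were led by a noncoding transcript in both libraries, among them Srsf3 and Tra2a, where it was not the same one. Neither count is given here over all expressed genes, so they describe the listed genes only. In Tra2a the coding transcript Tra2a-201 had 117 and 0 counts and the coding Tra2a-204 had 0 and 130, so the coding total was steady while its members exchanged. Of the 46 noncoding transcripts, 38 had credibility intervals of TPM, as deposited by the authors, that overlapped between the libraries.

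**Figure D4:**
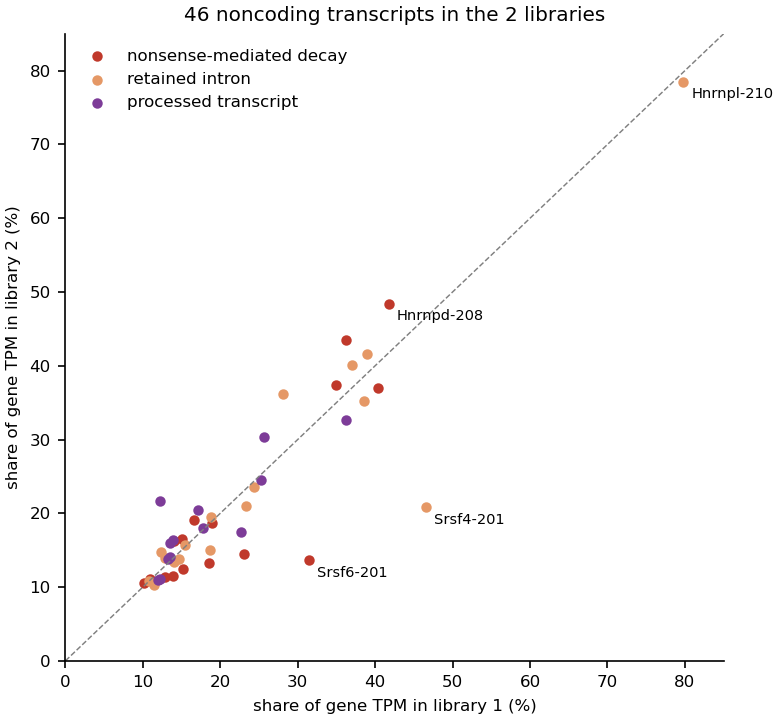
Share of its gene's TPM given to each of 46 noncoding transcripts in library 1 (horizontal, %) and library 2 (vertical, %), coloured by transcript type, with the dashed line of equality. Hnrnpl-210 stands apart at 79.8% and 78.5%, and Srsf4-201 (46.6% and 20.8%) and Srsf6-201 (31.4% and 13.7%) lie farthest below the line.

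Other genes of the splicing and decay machinery give the setting. Expression was found for 47 of 48 core spliceosome genes, at a median of 61.8 TPM over all 48. The median noncoding share of those with more than 1 transcript was 17.8%, and 11 of 45 with a noncoding transcript had 50% or more of TPM in both libraries (5 of 45 by counts), set against the same 19.7% of protein-coding genes by TPM and 11.4% by counts. Among them the Sm protein gene Snrpg gave 97.3% and 94.7% of TPM to noncoding transcripts, or 93.5% and 87.6% of counts. The branch-site factor gene Sf3b1 gave 64.1% and 68.0% of TPM, but 36.9% and 41.8% of counts. Of 10 genes for kinases and a phosphatase that act on SR proteins, 9 were expressed, at a median of 79.1 TPM over all 10, with a median noncoding share of 55.0% and 5 of 9 at 50% or more (3 of 9 by counts). The kinase genes Clk1 (91.3% and 87.1%), Clk2 (87.3% and 91.6%) and Prpf4b (82.7% and 84.7%), which phosphorylate SR proteins, were the highest by TPM. By counts Prpf4b had 49.5% and 54.5%. All 18 genes of NMD factors were expressed, at a median of 21.5 TPM, with a median noncoding share of 8.36% and 2 of 15 at 50% or more (0 of 15 by counts). Of 52 further splicing regulators, 40 were expressed at a median of 31.9 TPM over all 52, with a median noncoding share of 31.3% and 11 of 38 at 50% or more (7 of 38 by counts). Rbm39, a U2AF-related factor, was the highest of these at 570 and 530 TPM and gave 74.9% and 72.9% of TPM, or 49.7% and 48.4% of counts, to noncoding transcripts.

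The authors also deposited a smaller gene table, with whole-number counts on the GENCODE M4 annotation, 3746426 and 3680387 counts over 22457 genes. In CPM, 8 of the 35 expressed splicing factors were at least 4-fold lower there than in the larger table, which is 22.9%, against a background of 6.17% (626 of 10140 expressed protein-coding genes). The median log2 ratio of the smaller over the larger table was -0.72 for the splicing factors and 0.78 for the background. Hnrnpu had 0 and 0 counts in the smaller table and 283.6 and 280.0 CPM in the larger. Srsf2 had 41 and 38 counts, which is 11.0 and 10.3 CPM, against 512 and 535 CPM. Hnrnpf had 104 and 103 counts, or 27.8 and 28.0 CPM, against 1136 and 1143 CPM. Hnrnpa0, Hnrnpa1, Hnrnpa3, Hnrnpk and Srsf3 were the other 5, with 3 and 2, 48 and 25, 36 and 27, 906 and 871, and 213 and 223 counts. Hnrnph3 and Hnrnpm were the highest relative to the larger table, at log2 ratios of 1.34 and 1.12.

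Neither windows shared with other genes nor exons on the opposite strand, both taken from GENCODE M21, were found in all of these 8 genes. Other features, and the GENCODE M4 annotation, were not examined. Windows that also occur in other genes made up 36.8% of Hnrnpf, 28.2% of Hnrnpa1, 27.1% of Hnrnpa3, 14.5% of Hnrnpk and 9.999% of Srsf3, but 0 of Hnrnpu, Srsf2 and Hnrnpa0. Exons on the opposite strand covered 25.3% of Srsf2, 26.5% of Hnrnpf, 6.93% of Hnrnpu (Cox20, at 148 and 152 TPM) and 5.10% of Hnrnpk, but none of Hnrnpa0, Hnrnpa1 or Srsf3. Such exons also covered 43.0% of Srsf4, 29.1% of Hnrnpab and 20.7% of Ptbp1. Those genes were not lower in the smaller table, at log2 ratios of 0.59, 0.16 and 0.44. Hnrnpm overlaps March2 on its own strand over 14.7% of its exons. The part of shared windows, of overlapping genes and of the annotation in the difference between the tables was not tested. The levels of the 8 genes therefore differ by which table is read, and the levels given above are those of the larger table.

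**Figure D5:**
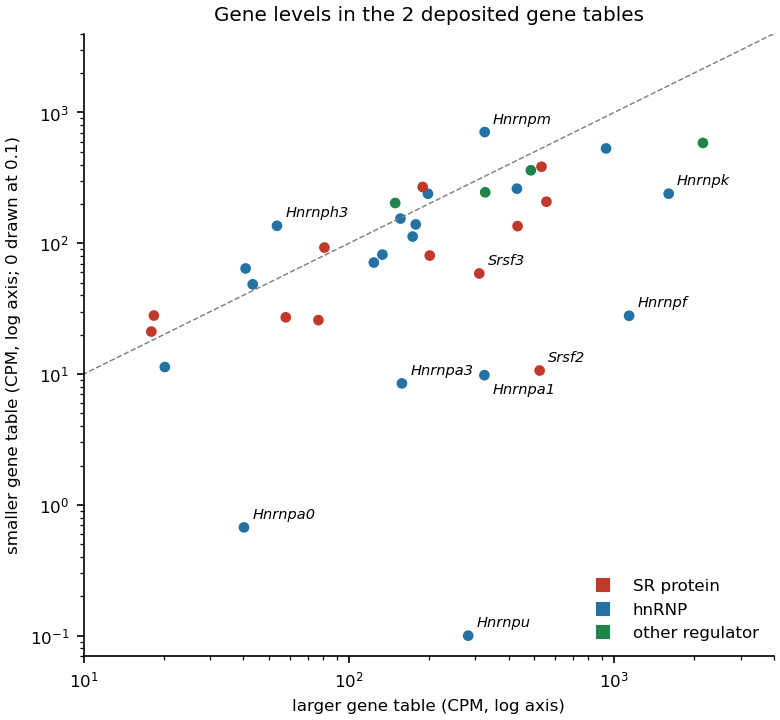
Mean level of each of 35 expressed genes in the larger gene table (horizontal, CPM, log axis) and in the smaller one (vertical, CPM, log axis, with 0 drawn at 0.1), coloured by kind of factor, with the dashed line of equality. Hnrnpu is at the bottom with 0 counts in the smaller table, and Srsf2, Hnrnpf, Hnrnpa0, Hnrnpa1 and Hnrnpa3 lie more than 10-fold below the line.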

How the data were processed

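PolyA plus RNA-seq was measured in 2 technical libraries of 1 sample, with 15821875 and 16153671 estimated counts on genes. Per the file headers, the transcript table and the larger of 2 gene tables, both on mm10 with GENCODE M21, hold expected counts (estimated counts, unscaled), TPM values scaled by the authors over all features, the percent of a gene's TPM given to each transcript, and bounds of a credibility interval on TPM whose level is not stated. Their column names are those RSEM writes. The smaller gene table, deposited with GENCODE M4, holds whole-number counts. The strand setting, aligner, counting tools, versions and filters were not given in the sources used here. Per-sample columns left unused numbered 0.

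Transcripts were grouped by GENCODE M21 type and shares summed by type, of TPM and of estimated counts. A named noncoding transcript had 10% or more of its gene's TPM in both libraries. Exons, stops and introns came from the GENCODE M21 annotation, and sequences from its transcripts. Windows are all runs of 50 bases of a transcript, compared on the same strand. CPM scales counts to the library's total on genes. Library ratios used estimated counts rounded to whole numbers, a prior count of 0.5, a summed count of 10 or more and library sizes scaled by TMM (edgeR 4.0.16, R 4.3.3), with DESeq2 1.42.0 size factors as an alternative. No dispersion model could be fitted with 1 library a side. The ratio rule was run on simulated data, where unchanged genes also passed it. It is therefore a description and not a test. Other steps used Python 3.11.15, pandas 2.3.3 and scipy 1.17.1. Sequencing reads without molecular identifiers are not independent molecules, so floors (3 counts) and the binomial test cover counting error only.

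Named genes are all 36 listed genes and, of each further list, genes among the 3 highest, the 3 lowest and the 3 with the highest noncoding share. The genes and lists were chosen with earlier results of these data known. Alternatives were posterior mean TPM, shares of counts, transcripts under 500 bases left out, a narrower meaning of noncoding, other scalings and filters, and each library alone.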

Additional observations from a re-analysis of the deposited data

How the results depend on the processing

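No paired analysis was possible because both libraries belong to the same group. The median noncoding share of 39.1% was 37.9% and 38.5% with either library alone, 39.8% by posterior mean TPM, 24.5% by counts and 23.3% with NMD and retained introns only. With NMD and retained introns only, 6 genes rather than 11 had 50% or more. The other settings gave 8 to 13. The median NMD share of 2.70% over the same 34 genes was 4.58% by posterior mean TPM and 1.15% by counts. The median retained-intron share of 12.7% was 11.8% and 12.3% with either library alone, 12.2% by posterior mean TPM, 5.81% by counts and 12.2% without transcripts under 500 bases. In the genes with under 5% of windows shared with other genes, a setting chosen after seeing the data, these 3 medians were 40.0%, 7.34% and 13.9%. The median level of 98.6 TPM was 89.2 by posterior mean TPM, by which 36 genes reached 1 TPM. The count of genes past 1.5-fold between the libraries was 0, and it was 1 of 36 with no filter on low counts (Rbfox2; 24.6% of all genes), 2 of 33 in the smaller table (Hnrnpa1 and Tra2a; 14.2% of all genes) and 14 of 35 by the binomial test (24.3%). Apart from the construction of each setting, the cause was not tested. Gene by gene, the noncoding share moved by more than the SD in 29 of 34 genes by counts (3 up, 26 down), 10 by posterior mean TPM (8 up, 2 down) and 8 without short transcripts (1 up, 7 down). Hnrnpf, Hnrnph2 and Hnrnpab, among the 34, have no noncoding transcript and could not move. Depth limits Srsf4, Srsf9 and Hnrnpul2 most, with 273 to 332 estimated counts a library.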
